A study of Mus musculus with 63 samples.

Results

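The genes described here are 38 genes of DNA replication and of the step from G1 into S phase of the cell cycle, listed by symbol. Of these, 37 were named by at least 1 probe of the arrays (Gins2 was not) and they had 63 probes among 28049 probes and 14541 named genes in all. Each gene was read by its probe with the most values, 17 of the genes had further probes, and all 37 had enough values to be tested in every comparison.

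DNA replication starts with licensing, when the origin recognition complex (Orc1, Orc6) together with Cdc6 and Cdt1 loads the ring of the MCM helicase (Mcm2 to Mcm7) onto origins. Cdc45, the GINS complex (Gins1) and Mcm10 then switch the helicase on, RPA coats the opened strands, the primase and polymerase alpha (Prim1, Pola1) start each strand, and polymerases epsilon and delta (Pole, Pold1) extend it on the PCNA clamp that the RFC complex loads. Fen1, Exo1 and Lig1 trim and seal the lagging strand, while Rrm1, Rrm2, Tyms and Tk1 supply nucleotides. Most of these genes are transcribed under E2F factors, which cyclin D with Cdk4 and cyclin E with Cdk2 release from the retinoblastoma protein downstream of growth factor receptors such as the epidermal growth factor receptor (EGFR) in the dividing basal cells of the epidermis.

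The cells were keratinocytes from the skin of newborn CD-1 mice, either EGFR wild type (WT) or EGFR knock-out (KO). They were left untransduced (mock) or transduced with v-rasHa, a viral oncogenic form of Ras, with diluted supernatant of Psi-2 producer cells and grown for 4 days, and some then received AG1478, PD153035 or erlotinib, inhibitors of the EGFR kinase, for 2 h at 1 µM. No culture time is given for the mock cells without inhibitor, of either genotype. WT mock had 4 samples and WT mock with AG1478, erlotinib or PD153035 had 5 each. WT ras had 5 samples and WT ras with each inhibitor 5. KO mock had 3 samples, KO ras 5, KO ras with AG1478 6, with erlotinib 4 and with PD153035 5, and no inhibitor was given to KO mock cells. Each array set the sample against universal mouse reference RNA, pooled from mouse cell lines, so a value is the log2 ratio of sample to reference and a difference of 1 is a 2-fold change. A bulk ratio cannot tell fewer cells of a type from less RNA per cell. The series' design calls the replicates biological, yet nothing ties them to separate cultures or animals, so p-values measure only the spread between these samples.

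Promoter sequences of these genes are shown because the E2F motif was more frequent among them than among all promoters, though most members lacked it. The genes were listed by symbol, and no motif was used in the choice. Most of them are transcribed under E2F factors, so the motif's frequency is not independent of that choice. Promoters were taken from RefSeq on GRCm38.p6, 250 bases before to 50 after each start, and 30 of the 38 genes had an entry, with 34 promoters. The E2F motifs searched on both strands were TTTCGCGC, TTTGGCGC, TTTCCCGC and TTTGCCGC, and 35.3% of the 34 promoters held at least 1, against 2.27% of all 32851 promoters of the same length. The motif CCAAT, read by NF-Y, was in 55.9% against 37.4%, and TTTGAA, the cell cycle homology region typical of G2/M genes, in 8.82% against 17.9%. In all, 12 members had an E2F match and 5 of them had a promoter with 2 or more. The last 170 bases before the start are given, 5′ to 3′ on the gene's strand with E2F matches in capitals, for 8 members chosen after their values were seen: 6 with a match in the window and, beside them, Ccne1 and E2f1, called members without one. They are Mcm5 (chr8:75109339-75109508, plus strand), Mcm6 (chr1:128359706-128359875, minus strand), Orc1 (chr4:108579284-108579453, plus strand), Cdc6 (chr11:98907981-98908150, plus strand), Rfc3 (chr5:151651209-151651378, minus strand), Pold1 (chr7:44548816-44548985, minus strand), Ccne1 (chr7:38107491-38107660, minus strand) and E2f1 (chr2:154569427-154569596, minus strand).
Mcm5: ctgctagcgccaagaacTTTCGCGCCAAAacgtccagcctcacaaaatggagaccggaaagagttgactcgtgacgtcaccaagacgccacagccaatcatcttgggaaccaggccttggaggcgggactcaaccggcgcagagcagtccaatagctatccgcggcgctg
Mcm6: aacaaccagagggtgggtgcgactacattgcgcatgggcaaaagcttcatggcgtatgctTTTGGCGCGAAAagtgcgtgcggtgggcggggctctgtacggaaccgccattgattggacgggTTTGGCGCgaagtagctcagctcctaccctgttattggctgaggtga
Orc1: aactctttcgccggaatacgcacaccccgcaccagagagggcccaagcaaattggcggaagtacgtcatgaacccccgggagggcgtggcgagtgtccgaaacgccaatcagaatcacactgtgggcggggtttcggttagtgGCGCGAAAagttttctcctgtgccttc
Cdc6: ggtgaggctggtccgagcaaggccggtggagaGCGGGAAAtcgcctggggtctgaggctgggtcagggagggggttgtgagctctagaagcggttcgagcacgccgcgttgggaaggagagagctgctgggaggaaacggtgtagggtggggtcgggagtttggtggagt
Rfc3: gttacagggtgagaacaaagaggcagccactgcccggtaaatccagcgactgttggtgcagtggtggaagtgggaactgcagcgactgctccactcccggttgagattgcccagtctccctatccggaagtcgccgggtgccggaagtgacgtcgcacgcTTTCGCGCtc
Pold1: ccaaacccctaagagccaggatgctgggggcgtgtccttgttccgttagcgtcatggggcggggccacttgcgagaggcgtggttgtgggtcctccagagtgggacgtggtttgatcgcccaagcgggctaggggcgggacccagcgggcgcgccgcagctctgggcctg
Ccne1: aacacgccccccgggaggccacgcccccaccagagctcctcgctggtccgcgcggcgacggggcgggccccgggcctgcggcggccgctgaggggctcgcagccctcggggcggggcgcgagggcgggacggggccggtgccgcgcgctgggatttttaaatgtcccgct
E2f1: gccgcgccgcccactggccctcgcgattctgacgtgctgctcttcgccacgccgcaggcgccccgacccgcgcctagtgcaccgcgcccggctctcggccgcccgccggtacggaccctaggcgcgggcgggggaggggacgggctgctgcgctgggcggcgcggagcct
Mcm5 had overlapping matches that began 153 and 149 bases before the start, and Mcm6 had matches at 110, 106 and 47 bases. Orc1, Cdc6 and Rfc3 each had 1 match in the stretch shown, at 27, 138 and 10 bases before the start. Pold1, the member with the most stable difference below, had none there and 1 match 39 bases after the start, and Ccne1 and E2f1 had none of these letters in the whole window. A match describes the letters only and says nothing about binding.

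On all 63 arrays the 23 keratinocyte markers measured lay above 19 markers of the reference pool, by 1.62 to 7.07. The 2 probes named Egfr did not separate the genotypes: group means ran from 1.30 to 2.62 for the first and from 0.14 to 1.86 for the second, and the KO minus WT differences had adjusted p from 0.291 to 0.975 by limma. The sources used here do not place these probes inside or outside the deleted stretch, so they do not check the labels and genotype is as labelled throughout. The arrays of KO ras with AG1478 labelled repeats 3 and 4 went against their dye labels, with correlations of −0.830 and 0.805 to the other arrays, and were turned by that correlation; results that rest on them are also given without them. The experiment numbers in the labels fall into 8 runs, whose meaning is not given. KO mock, and KO ras repeats 1 to 3, each form a run with no WT sample, and the samples of KO mock and WT mock, of KO ras and WT ras, of KO mock and KO ras, and of WT ras with and without an inhibitor share no run, so there run and group cannot be told apart. The same holds in ras cells of each genotype for erlotinib against AG1478 or PD153035. It also holds for KO ras against KO ras with AG1478 or PD153035.

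The members together were highest in WT ras and in KO ras with erlotinib and lowest in KO mock and KO ras with PD153035. The median log ratio over the 37 members was 0.98 ± 0.41 (SD, n = 5) in WT ras, 0.96 ± 0.32 (n = 4) in KO ras with erlotinib, 0.02 ± 0.10 (n = 3) in KO mock and 0.01 ± 0.09 (n = 5) in KO ras with PD153035. WT mock lay at 0.70 ± 0.28 (n = 4) and KO ras at 0.42 ± 0.18 (n = 5). These are log ratios to the pool, so a value near 0 means a level near that of dividing cell lines, not an absent transcript. KO mock was the lowest group for 12 members and KO ras with PD153035 for another 12, while KO ras with erlotinib was the highest for 14 and WT ras for 8. The matching shares over all probes are not given, so these counts cannot be called particular to the members. KO mock rests on 3 samples and KO ras with erlotinib on 4. Arrays also differed in the spread of their ratios, read as the median absolute deviation per array. It ran from 1.10 to 1.36 in KO ras with erlotinib and from 0.80 to 1.30 in WT ras. In KO mock it ran from 0.51 to 1.04, in KO ras with PD153035 from 0.65 to 1.15 and in KO ras from 0.86 to 1.44. The part of this spread in the ranking was not tested. The samples of KO ras with erlotinib came from 2 runs: the 3 samples of the first lay at or above 1.01, and the sample of the second at 0.49.

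**Figure D1:**
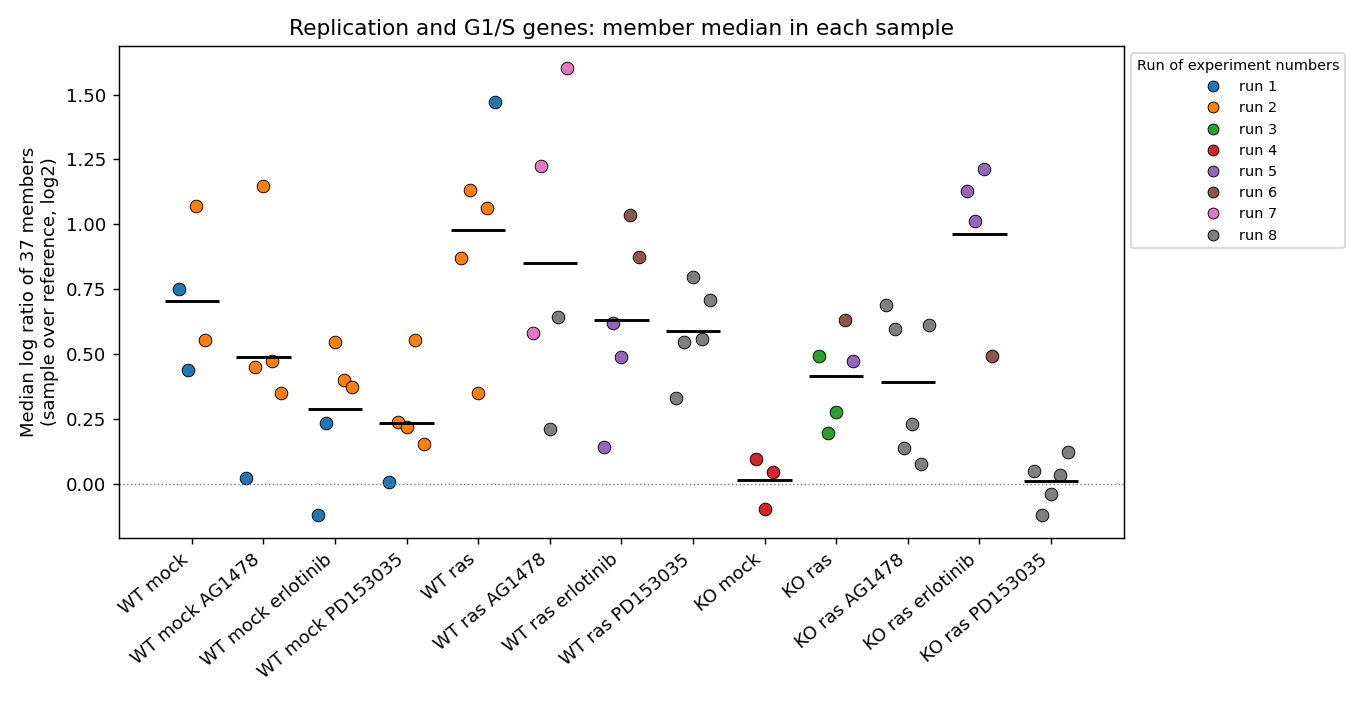
Median log2 ratio of sample to reference RNA over the 37 members, 1 point per sample for the 13 groups, coloured by run of experiment numbers; bars are group means. KO mock (mean 0.02) and KO ras with PD153035 (mean 0.01) lie lowest, and WT ras (mean 0.98) and KO ras with erlotinib (mean 0.96) highest.

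Pold1, the catalytic subunit of polymerase delta, which copies the lagging strand, was lower in KO than in WT ras cells under the inhibitors. It had 1 probe, so no further probe could be set beside it. With AG1478 the WT samples read 1.17, 2.68, 1.54, 2.10 and 1.89, and the 6 KO samples ran from 0.01 through a median of 0.52 to 0.78. With PD153035 the WT samples read 1.73, 2.16, 1.95, 1.36 and 2.21 and the KO samples 0.19, 0.60, 0.40, 0.15 and 0.41. In both treatments every KO sample lay below every WT sample, as did 1.5% of all probes with AG1478 and 3.15% with PD153035. The difference was −1.41 (SE 0.28, 95% interval −1.98 to −0.85, adjusted p = 0.00269 by limma with Benjamini-Hochberg adjustment) with AG1478 and −1.53 (SE 0.30, −2.12 to −0.94, adjusted p = 0.00153) with PD153035.

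With erlotinib Pold1 read 1.36, 2.19, 1.64, 0.98 and 1.77 in WT ras and 1.21, 1.00, 0.78 and 0.09 in KO ras. Only 1 WT sample, at 0.98, fell within the KO range, and the difference of −0.81 (SE 0.31, limma adjusted p = 0.179) did not pass. Without inhibitor WT ras read 1.07, 1.12, 1.45, 1.54 and 2.10 and KO ras 0.07, 0.16, 0.13, 0.70 and 1.12. There the ranges overlapped at the highest KO sample, and the difference was −1.02 (SE 0.30, adjusted p = 0.0517). In mock cells WT read 0.80, −0.20, 0.89 and 0.29 and KO 0.17, −0.34 and −0.00, which overlapped, with a difference of −0.51 (adjusted p = 0.463). Averaged over the 3 inhibitors, a comparison added after the data were seen, Pold1 was lower in KO, with a difference of −1.25 (SE 0.17, −1.60 to −0.91, 0.420-fold, limma adjusted p = 1.19e-06).

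**Figure D2:**
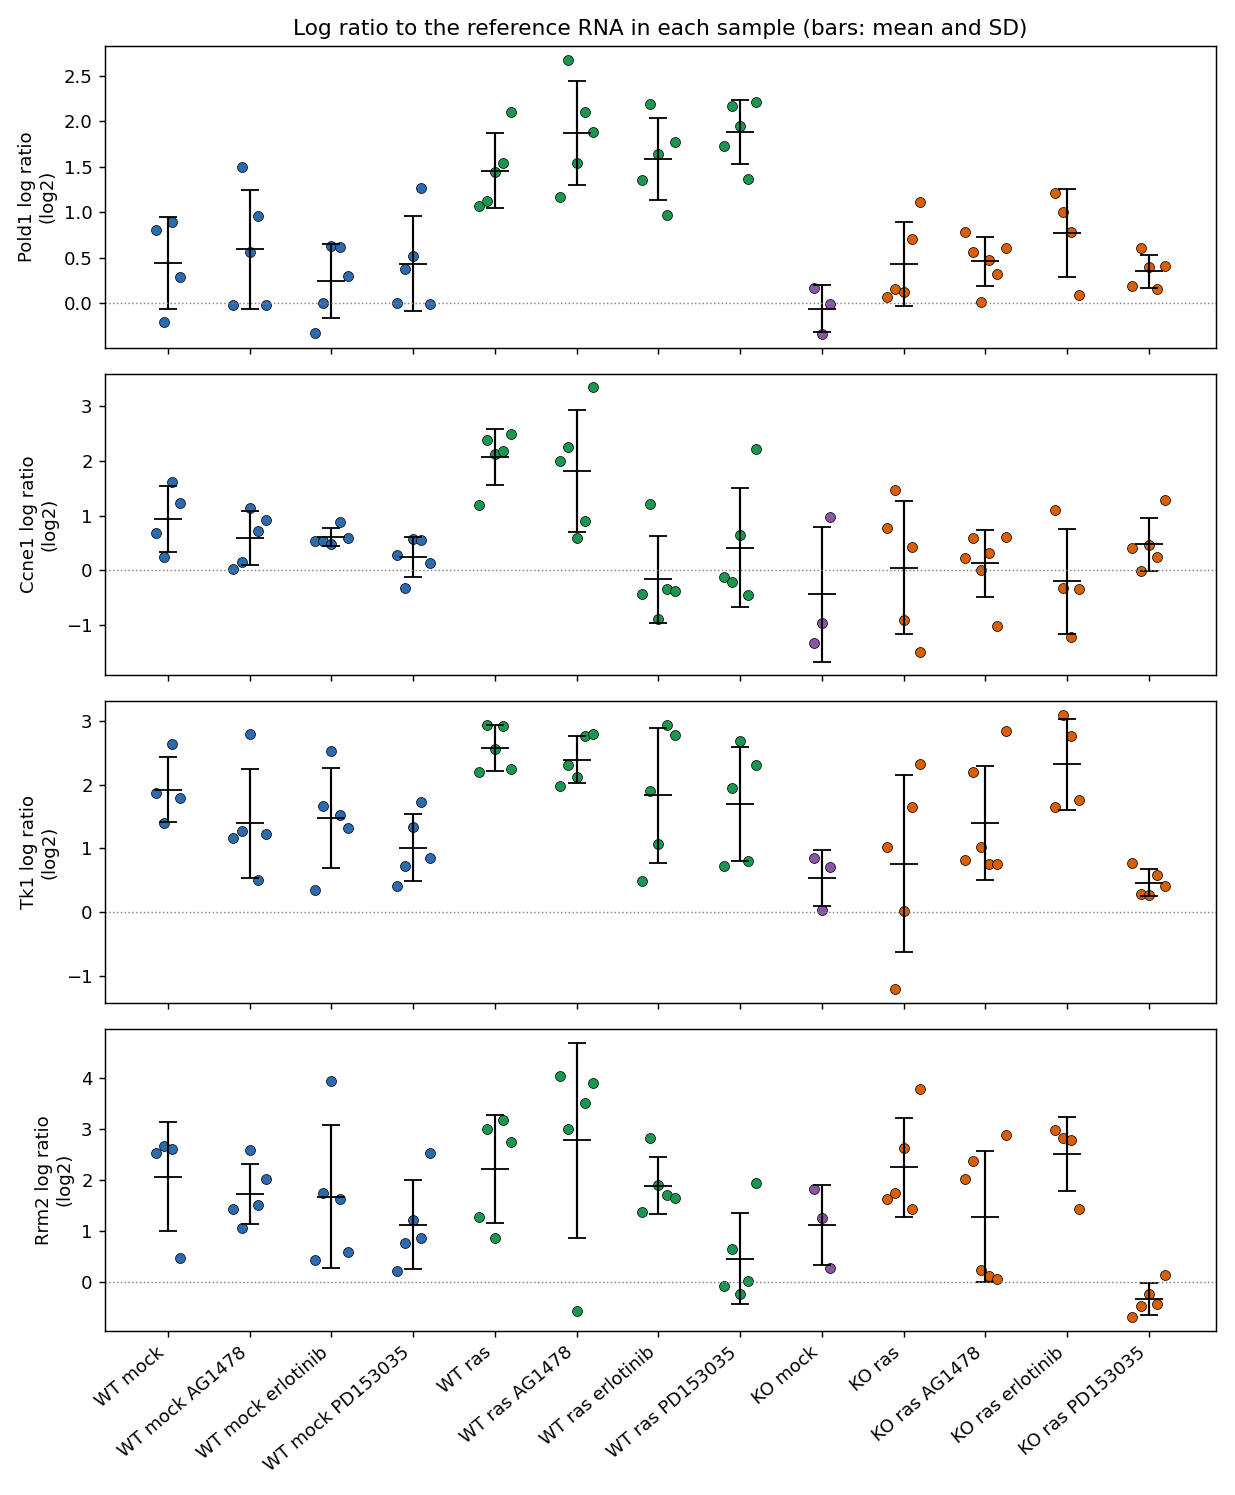
Log2 ratio to the reference RNA of Pold1, Ccne1, Tk1 and Rrm2 in each sample of the 13 groups; points are samples, bars the group mean and SD. In ras cells with PD153035 the Pold1 points of WT (1.36 to 2.21) lie above those of KO (0.15 to 0.60), and Rrm2 is low in KO ras with PD153035 (−0.68 to 0.14).

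The Pold1 difference had the same sign in every run that held both genotypes under an inhibitor. It was −1.36 with AG1478 and −1.53 with PD153035 in the run with both, and −0.73 and −1.28 with erlotinib in the 2 runs that held it. The value of −1.28 rests on 1 KO sample. With run as a fixed block the average over inhibitors was −1.29 (SE 0.16, limma adjusted p = 1.11e-05), while the AG1478 difference alone, −1.40, no longer passed (adjusted p = 0.141) in that fit, which also held only the groups compared; with only those groups and no run term it was 0.0449. Without both arrays of disputed dye order the AG1478 difference was −1.30 (adjusted p = 0.0263), with their labels taken as given −1.58 (adjusted p = 0.000746), and every call for Pold1 held with each sample left out in turn. Within runs the members as a whole behaved less evenly: the median difference was −0.07 with AG1478, 0.63 and −0.32 with erlotinib and −0.65 with PD153035.

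**Figure D3:**
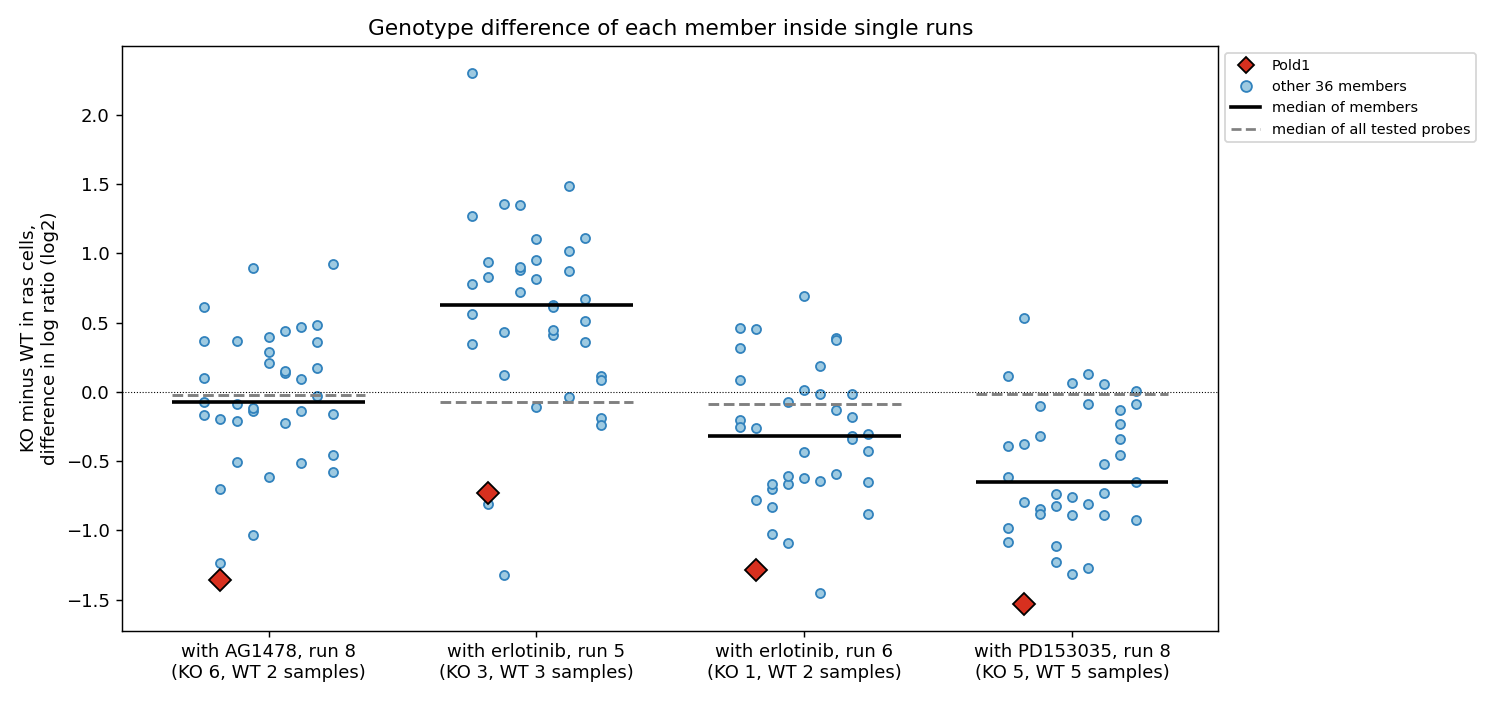
KO minus WT difference in log2 ratio of each of the 37 members in ras cells, within the runs of experiment numbers that hold both genotypes; the diamond is Pold1, the solid line the members' median and the dashed line the median of all tested probes. Pold1 lies between −0.73 and −1.53 in all 4, while the members' median lies between −0.65 and 0.63.

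Cyclin E1 and thymidine kinase were the members that passed between KO ras and WT ras without inhibitor. Ccne1, the cyclin that activates Cdk2 at the start of S phase, read 1.19, 2.37, 2.13, 2.18 and 2.49 in WT ras and 0.77, 1.46, −0.91, 0.43 and −1.49 in KO ras. The groups overlapped at the lowest WT sample, and Ccne1 was lower in KO, with a difference of −2.02 (SE 0.49, limma adjusted p = 0.0226). Tk1, which salvages thymidine, read 2.19, 2.94, 2.56, 2.92 and 2.25 in WT ras and 1.02, −1.21, 0.03, 1.64 and 2.32 in KO ras. Only 1 KO sample reached the WT range, and the difference was −1.81 (SE 0.48, adjusted p = 0.0363). These were 2 of 37 members, against 1.93% of all 27966 probes tested, and 30 of the 37 differences were negative, with a median of −0.53 (0.01 over all probes, 49.3% of them below 0). On their main probes Rfc2 and Ccnd1 lay lower in every KO than in every WT sample, as did 1.32% of all probes, with differences of −0.94 (adjusted p = 0.0966) and −1.16 (adjusted p = 0.159). The probes of both genes disagreed in sign. For Rfc2 the further probes averaged −0.82 and −0.75 in KO ras against −1.14 and −0.87 in WT ras. For Ccnd1 they averaged 1.26, 1.80 and 1.23 against 2.06, 1.71 and 2.00.

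Further probes of the members differed here too: second probes of Mcm4 (−2.44, limma adjusted p = 0.0277) and Mcm7 (−1.73, 0.0271) and 2 further probes of Rrm2 (−1.69, 0.0355 and −1.87, 0.0295) were lower in KO ras. The main probes of these genes, with differences of −0.87, −0.46 and 0.04, did not pass, and for Rrm2 the probes disagreed in sign. A second Ccne1 probe differed by −1.11 (adjusted p = 0.101) and further Tk1 probes by −0.55 and −1.19, none of them past the threshold. The Ccne1 call was lost without WT ras replicate 5 or KO ras replicate 3 or 5 (adjusted p = 0.0503 to 0.084), and the Tk1 call without any of WT ras replicates 2 to 5 or KO ras replicates 1 to 3 (0.0581 to 0.18). Without KO ras replicate 4, 4 members passed (Pold1, Tk1, Ccne1 and Cdk2), with the share of all probes in that fit not given. Both calls were lost with run as a random block (adjusted p = 0.309 for Ccne1 and 0.478 for Tk1) and with only the compared groups in the fit (0.282 and 0.286).

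With AG1478, Ccne1 was again lower in KO ras cells. It read 2.00, 2.25, 0.58, 0.91 and 3.34 in WT, and ran from −1.01 through a median of 0.28 to 0.61 in KO. A single KO value of 0.61 lay above the lowest WT value, and the difference was −1.69 (SE 0.47, limma adjusted p = 0.0364). It was lost without WT ras AG1478 replicate 1, 2 or 5 or KO ras AG1478 replicate 1, 3 or 5 (adjusted p = 0.0581 to 0.144), without both disputed arrays (−1.74, adjusted p = 0.0866) and with run as a random block (0.29). Pold1 and Ccne1 were 2 of 37 members called, against 2.23% of all 27750 probes, and 30 of 37 differences were negative, with a median of −0.26 (−0.03 over all probes, 52.4% of them below 0). A second Ccne1 probe differed by 0.04 in this comparison (adjusted p = 0.973), so the call rests on the main probe. Without WT ras AG1478 replicate 3, 4 members passed (Cdc6, Pold1, Rrm2 and Ccne1), with the share of all probes in that fit not given. With erlotinib and PD153035, Ccne1 differed by −0.03 (interval −1.06 to 1.01) and 0.06 (−0.91 to 1.04) between genotypes, and these intervals do not exclude a 1-unit difference in either direction.

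With PD153035, Lig1 joined Pold1 among the called members. Lig1, the ligase that seals nicks between Okazaki fragments, read 0.51, 1.05, 1.75, 0.79 and 1.25 in WT and 0.11, −0.39, −0.14, −0.25 and −0.34 in KO. The groups did not overlap, and Lig1 was lower in KO, with a difference of −1.27 (SE 0.34, limma adjusted p = 0.0389), and −0.79 (0.657) on a further probe. The call was lost without any of WT ras PD153035 replicates 2 to 5 or any KO ras PD153035 sample (adjusted p = 0.0555 to 0.152). The called members were 2 of 37 against 1.38% of all 27934 probes, 31 of 37 differences were negative and their median was −0.65 (−0.01 over all probes, 51.2% of them below 0), all within 1 run. Every KO sample lay below every WT sample for 9 members (Mcm2, Mcm5, Gins1, Pcna, Pold1, Lig1, Rpa2, Rrm1 and Ccne2), against 3.15% of all probes, and the sample medians over the members did not overlap either. In the fit of these groups alone 7 members passed, against 3.26% of all probes in that fit.

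With erlotinib no member passed between genotypes, against 0.985% of all 27617 probes, and the direction was the other way: 26 of 37 differences were positive, with a median of 0.28 (−0.06 over all probes, 54.3% of them below 0). E2f1, the E2F factor that is itself a G1/S target, lay higher in every KO sample, at 2.55, 2.87, 2.55 and 2.03, than in WT at 0.64, −0.06, 0.49, 1.98 and 1.43, as did 2.33% of all probes. That difference was 1.56 (SE 0.50, limma adjusted p = 0.108). The pooled direction did not hold within runs, whose members' medians were 0.63 in the run with 3 KO samples and −0.32 in the run with 1. Keratinocyte markers moved with genotype here too: 21 of 23 had positive differences, 3 passed (Trp63, Lama3 and Itga6), and the list median per sample was 2.46 to 3.46 in WT and 3.72 to 4.44 in KO, without overlap. Their part in the difference was not tested. Over the 3 inhibitors together Pold1 and Cdc6 were the called members, against 6.48% of all probes, so that the count lay at the background. Cdc6, which loads the helicase, was lower in KO, with a difference of −0.76 (SE 0.23, limma adjusted p = 0.0287), and lost its call with run as a fixed block (−0.57, 0.135), without both disputed arrays (0.0525), and without KO ras erlotinib replicate 3 or 4, WT ras erlotinib replicate 2 or either genotype's PD153035 replicate 5 (0.0526 to 0.066). Cdc6 read 1.29, 1.43, 0.06, 0.71 and 1.73 in WT ras with AG1478 but −0.42, 1.37, −0.54, −0.67 and 0.32 with erlotinib and 0.24, −0.97, −0.26, −0.16 and 1.04 with PD153035. In KO ras it ran from −0.66 through a median of −0.14 to 0.69 with AG1478, read 0.75, −0.39, −0.52 and −0.83 with erlotinib, and −0.74, −0.84, −0.97, −0.48 and −1.69 with PD153035, so the genotypes overlapped under each inhibitor.

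In mock cells no member passed the test between genotypes, against 1.11% of all 27913 probes, yet the members lay low in KO as a list. Further probes of Mcm6 (−2.23 and −1.24) and Cdc6 (−1.09 and −1.55) did not pass either. Of the 37 differences 32 were negative, where 46.7% of all probes were, and their median was −0.83 (0.05 over all probes). Every KO sample lay below every WT sample for 12 members (Mcm3, Mcm5, Orc1, Cdt1, Pola1, Prim1, Exo1, Rpa2, Tk1, Ccnd1, Cdk2 and E2f1), against 9.61% of all probes, and the sample medians over the members did not overlap. With 3 KO samples in a run of their own, the typical 95% half-width of a member's difference was 0.90.

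By role, the 6 MCM genes of the helicase ring had differences from −1.23 (Mcm6) to −0.62 (Mcm2), and the polymerase and primase genes from −1.54 (Pola1) to −0.46 (Pole). The licensing genes ranged from −1.83 (Orc1) to 0.02 (Cdc6). Orc1, named here for its size after the values were seen, read 1.87, 1.00, 3.56 and 1.57 in WT and −0.34, 0.40 and 0.38 in KO, which did not overlap (limma adjusted p = 0.0885). Ccnd1, the D-type cyclin that growth factor signals induce, read 1.48, 1.25, 1.43 and 1.22 in WT and −0.16, −0.10 and 0.05 in KO. Its groups stood more than 1 unit apart, and the fitted difference was −1.40 (SE 0.54, adjusted p = 0.163). E2f1 read 1.81, 1.26, 2.54 and 1.41 in WT and 0.99, −0.39 and −0.02 in KO, again without overlap, and Pcna, the clamp, read 1.15, 0.34, 1.22 and 1.17 against 0.53, 0.42 and 0.08, with overlap at the lowest WT sample. Mcm10 (0.34), Rfc5 (0.43) and Cdk4 (0.38) were among the 5 members with positive differences.

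Other markers moved with genotype in mock cells. Of the 23 keratinocyte markers 20 were higher in KO and 4 passed (Krt14, Krt15, Krt10 and Sprr1a), with a list median per sample of 2.77 to 4.29 in WT and 3.13 to 5.42 in KO. All 17 fibroblast markers measured had positive differences and none passed, with list medians of −1.21 to −0.70 in WT and −0.62 to −0.11 in KO, below the reference pool in both. Leukocyte markers ran from −1.93 to −0.77 and from −1.84 to −0.12, endothelial markers from −2.67 to −1.05 and from −1.13 to −0.82, and melanocyte markers from 1.19 to 3.01 and from 0.52 to 5.28, in WT and KO, with no marker of these 3 lists past the threshold. The part of these lists in the members' differences was not tested. Without KO mock replicate 3 the members' median was −0.59, and without WT mock replicate 2 Ccne2 passed. With array weights 10 members passed (Mcm5, Mcm7, Orc1, Cdt1, Rfc2, Pola1, Rpa2, Ccne2, Ccnd1 and Cdk2), against 10.7% of all probes.

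No member passed between cells with and without v-rasHa. In WT cells the calls were 0 of 37, against 0.183% of all 27859 probes, 27 of 37 differences were positive and the median was 0.19 (0.04 over all probes, 46.5% of which were below 0). Pold1 and Ccnd1 were higher in every WT ras than in every WT mock sample, as were 1.12% of all probes. Ccnd1 read 1.79, 2.97, 1.62, 2.40 and 3.06 in WT ras, a difference of 1.01 (SE 0.48, limma adjusted p = 0.717) from WT mock, and Pold1 differed by 1.01 (SE 0.31, adjusted p = 0.375). Within runs the members' median was 0.58 in the run with 1 ras sample and −0.04 in the run with 4, so the pooled direction did not hold within runs.

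In KO cells 27 of 37 differences between ras and mock were positive with a median of 0.51 (0.01 over all probes, 49.4% of them below 0), and none passed, against 0.539% of all 28034 probes. Mcm3, Mcm5, Rfc3, Rfc4 and Ccnd1 lay higher in every KO ras than in every KO mock sample (2.18% of all probes), and the sample medians did not overlap. Ccnd1 read 1.47, 0.89, 1.31, 1.26 and 1.10 in KO ras, a difference of 1.25 (SE 0.52, limma adjusted p = 0.535). A second Ccne1 probe was lower in KO ras than in KO mock (−1.74, adjusted p = 0.038), where the main probe differed by 0.52 the other way. The difference between genotypes in the response to ras had a median of 0.13 over the members, and none passed (0.0108% of all 27852 probes). For Pold1 it was −0.52 (adjusted p = 0.912).

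In WT mock cells the inhibitors left no member past the threshold, and most lay lower. Averaged over the 3 compounds, 34 of 37 differences were negative, against 48% of all probes, with a median of −0.44 (0.02 over all probes), and 0% of all 27786 probes passed, by limma, members included. Before adjustment 2 members were under 0.05, Orc1 (−1.24) and E2f1 (−1.02). The median was −0.32 with AG1478, −0.37 with erlotinib and −0.53 with PD153035, all set against the same 4 WT mock samples. The sign held within both runs that held treated and untreated cells: the medians were −0.63 and −0.47 for the average, with 32 members negative in each. Exo1 with AG1478 (0.766% of all probes) and Pole and Rpa2 with PD153035 (0.696%) lay below every untreated sample.

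In WT ras cells 3 members fell on average over the inhibitors, against 2.21% of all 27660 probes. They were Mcm3, a subunit of the helicase ring (−1.16, limma adjusted p = 0.0155), Exo1, a 5′ to 3′ exonuclease (−0.94, 0.0302), and Ccne1 (−1.38, 0.0482). Of the 37 differences 29 were negative, with a median of −0.32 (0.04 over all probes, 46.5% of them below 0). Mcm3 read 0.67, 1.47, 1.32, 1.73 and 1.77 in WT ras, 0.45, −0.60, 1.13, 1.75 and −0.44 with AG1478, −0.25, −1.29, −0.97, 1.04 and 0.73 with erlotinib and 0.01, 0.29, 0.21, 1.18 and 0.20 with PD153035. Its treated samples spread widely and overlapped the untreated ones under each compound. Exo1 read 0.58, 1.50, −0.49, 1.57 and −0.01 in WT ras, −0.58, 0.17, −1.44, 0.23 and −0.87 with AG1478 and −0.14, −0.98, −1.07, 0.29 and −0.15 with erlotinib, again with overlap. Untreated and treated WT ras samples share no run, so compound and run cannot be told apart here.

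Erlotinib gave the most calls in WT ras cells, 4 of 37 against 3.41% of all probes. Ccne1 read −0.43, 1.21, −0.89, −0.34 and −0.37 with erlotinib, a difference of −2.23 (SE 0.49, limma adjusted p = 0.0062). Only the highest treated sample reached the lowest untreated one, at 1.19. The second Ccne1 probe differed by −0.22 (adjusted p = 0.809), so this call too rests on 1 probe. Mcm3 (−1.54, 0.0068), Exo1 (−1.04, 0.0456) and Rfc3, a subunit of the clamp loader (−0.86, 0.0414), fell too. With AG1478 the call was Exo1 (−1.13, 0.0408, against 1.96% of all probes) and with PD153035 Rfc3 (−0.97, 0.0443, against 0.66%), so that the AG1478 count lay near the background. Rfc3 read 0.29, 1.15, 0.44, 0.78 and 1.53 in WT ras and −0.13, −0.39, 0.02, 0.04 and −0.21 with PD153035, without overlap (1.05% of all probes).

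Further probes fell as well: 2 of Rrm2, the regulated subunit of ribonucleotide reductase, with erlotinib (−2.48, limma adjusted p = 0.000897, and −2.00, 0.0138) and 1 with PD153035 (−1.87, 0.03), Mcm4 with erlotinib (−2.14, 0.038), Cdk4 with erlotinib (−0.83, 0.0496) and Mcm7 with AG1478 (−1.54, 0.045). All the calls of the main probes in treated against untreated WT ras cells were lost with run as a random block (adjusted p = 0.187 to 1) and with only the groups compared in the fit (0.0656 to 0.329). With samples left out, Ccne1 and Mcm3 with erlotinib kept their calls throughout, and Mcm3 over the 3 compounds lost its call without WT ras replicate 5 (0.0999). Exo1 was lost over the 3 compounds without WT ras replicate 1, 2 or 4 (0.0559 to 0.152), with AG1478 without these or WT ras AG1478 replicate 1, 3 or 5 (0.0797 to 0.124), and with erlotinib without WT ras replicate 1, 2, 4 or 5 or WT ras erlotinib replicate 1, 2 or 3 (0.0539 to 0.165). Rfc3 was lost without WT ras replicate 2, 4 or 5 under erlotinib and PD153035, and also without WT ras erlotinib replicate 1, 3 or 5 (0.0545 to 0.166) or any WT ras PD153035 sample (0.0559 to 0.221). Ccne1 over the 3 compounds lost its call in 15 of 20 such fits (0.0504 to 0.175), being kept without WT ras replicate 1, WT ras erlotinib replicate 2 or 5, WT ras AG1478 replicate 5 or WT ras PD153035 replicate 5.

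In KO ras cells, which lack the receptor by label, the members' median difference varied between the groups given each compound. Erlotinib shares no run there with AG1478 or PD153035, so compound and run cannot be told apart. Averaged over the 3 compounds, the members' median difference was 0.04 and none passed (0.25% of all 27582 probes). With PD153035, 26 of 37 differences were negative with a median of −0.35, where 49.4% of all probes were below 0, and Rrm2 and Rfc3 fell, 2 of 37 against 4.82% of all probes, a share near the background. Rrm2 read 1.64, 1.76, 2.64, 1.45 and 3.78 in KO ras and −0.68, −0.47, −0.22, −0.43 and 0.14 with PD153035. The lowest untreated sample stood more than 1 unit above the highest treated one, and the difference was −2.58 (SE 0.64, limma adjusted p = 0.0148). Rfc3 read 0.72, 1.30, 1.03, 0.50 and 1.01 against 0.09, −0.20, −0.14, −0.13 and −0.01, also without overlap, a difference of −0.99 (adjusted p = 0.0166) that was lost without KO ras replicate 2 (0.0633).

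With PD153035 in KO ras 6 members in all lay below every untreated sample (Mcm2, Cdc6, Rfc3, Rfc4, Lig1 and Rrm2), against 3.08% of all probes. The further probes of Rrm2 did not follow its main probe closely: they differed by −0.50 and −0.03, and averaged over probes the difference was −1.04 (limma adjusted p = 0.132). A further probe of Ccne1 rose with PD153035 (1.26, adjusted p = 0.0373). The further probe of Lig1 went the other way, by 1.12 (limma adjusted p = 0.161) against −0.79 on its main probe. Those of Cdc6 differed by −0.29 and −0.55, on the side of its main probe. Of the 23 keratinocyte markers 18 had negative differences and Trp63, Sfn and Jup fell, with list medians of 3.91 to 4.96 in KO ras and 2.02 to 4.75 with PD153035, and their part was not tested. Rfc3 and Rrm2 lost their calls with run as a random block (0.631 and 0.673), where no run held both groups, and Rfc3 also with only the groups compared in the fit (0.0537). With AG1478 no member passed (0.229% of all probes) and the median was 0.00.

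With erlotinib in KO ras the members lay higher, with 30 of 37 differences positive, where 50.2% of all probes were below 0, and a median of 0.43, though none passed (0.0543% of all probes). E2f1 read 0.19, −1.07, 0.63, 1.61 and 0.44 in KO ras and 2.55, 2.87, 2.55 and 2.03 with erlotinib, which did not overlap (1.11% of all probes), and its difference of 2.09 (SE 0.50) had a limma adjusted p of 0.068. Pcna read 0.44, −0.57, −0.49, 0.43 and 1.53 in KO ras and 2.49, 1.59, 2.08 and 0.49 with erlotinib, a difference of 1.39 (SE 0.39, adjusted p = 0.116) with overlap at the last sample. The members' median within runs was 0.51 in the run with 3 treated samples and 1 untreated, and −0.02 in the run with 1 of each. Calls appeared with samples left out: 4 members (Cdt1, Pcna, Tk1 and E2f1) passed without KO ras replicate 5, E2f1 without KO ras replicate 4, and Pcna and E2f1 without KO ras erlotinib replicate 4. The shares of all probes that passed in these fits are not given.

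The 3 compounds are anilinoquinazolines that bind the ATP site of the EGFR kinase. AG1478 and PD153035 share the dimethoxyquinazoline and differ in the halogen on the aniline ring, chlorine or bromine, while erlotinib has an ethynyl group on the ring and methoxyethoxy side chains. They were compared in pairs at the same dose and time in WT mock, WT ras and KO ras cells, 9 pairs in all, with p-values adjusted over all 9 together. AG1478 and PD153035, the pair that differs in the halogen, gave no called member in any of the 3 states, against 0.0108%, 0.775% and 0.645% of all probes. The intervals are wide: the largest member difference was 0.83 for Rpa2 in WT mock (0.22 to 1.44), 2.32 for Rrm2 in WT ras (1.04 to 3.60, limma adjusted p = 0.0767) and 1.61 for Rrm2 in KO ras (0.38 to 2.84, adjusted p = 0.276). Within the run that held both compounds the median over members was −0.33 in WT ras and 0.44 in KO ras. Rrm2 passed in WT ras without WT ras AG1478 replicate 3 or WT ras PD153035 replicate 5.

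AG1478 against erlotinib gave 1 called member in WT ras (0.685% of all probes) and 1 in KO ras (0.348%). These compounds shared no run in WT ras or in KO ras, so compound and run cannot be told apart there. In WT ras Ccne1 was higher with AG1478 by 1.98 (SE 0.49, interval 1.00 to 2.96, limma adjusted p = 0.0378), and its second probe by 0.22 (0.937). It was lost without any of WT ras erlotinib replicates 1, 3, 4 and 5 or WT ras AG1478 replicate 1, 2 or 5 (0.0654 to 0.14), with run as a random block (0.559) and with the replicate number as a block (0.0523). In KO ras E2f1 was lower with AG1478, where it ran from −0.17 through a median of 0.17 to 1.71, than with erlotinib, a difference of −2.08 (SE 0.48, −3.04 to −1.11, adjusted p = 0.0251). The groups did not overlap. The highest AG1478 sample is an array of disputed dye order, and without both such arrays the difference was −2.26 (adjusted p = 0.0331). The call was lost without KO ras erlotinib replicate 1, 2 or 3 (0.0784 to 0.106) and with run as a random block (0.598). In WT mock no member passed (0% of all probes), and the largest difference was 0.65 for Rpa2 (0.04 to 1.26).

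Erlotinib against PD153035 in KO ras gave the widest separation of the 9 pairs. The median over members was 0.79, 17 of 37 were higher in every erlotinib than in every PD153035 sample (5.5% of all probes), and 4 passed, against 2.09% of all probes. E2f1 was −0.77, −0.59, −0.80, 0.71 and 0.12 with PD153035, a difference of 2.72 (SE 0.50, 1.71 to 3.72, limma adjusted p = 0.00293). Mcm6, a subunit of the helicase ring, read 3.04, 1.67, 1.91 and 2.19 with erlotinib and −0.36, −0.62, −0.32, 0.07 and 0.62 with PD153035 (2.33, adjusted p = 0.0195). Rrm2 read 2.98, 2.82, 2.79 and 1.43 with erlotinib (2.85, adjusted p = 0.03), and Lig1 1.65, 1.35, 1.59 and 0.67 (1.52, adjusted p = 0.0285). The groups did not overlap for any of these 4.

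These erlotinib and PD153035 samples of KO ras share no run, and all 4 calls were lost with run as a random block (adjusted p = 0.246 for E2f1 and 0.461 to 0.778 for the others). E2f1 kept its call with each sample left out. Mcm6 was lost without KO ras erlotinib replicate 1 or KO ras PD153035 replicate 2 (0.0577 to 0.0917), Lig1 without KO ras erlotinib replicate 1, 2 or 3 or KO ras PD153035 replicate 2, 3 or 5 (0.0549 to 0.0964), and Rrm2 without KO ras erlotinib replicate 1, 2 or 3 or KO ras PD153035 replicate 1, 2 or 3 (0.0565 to 0.0874). Without KO ras erlotinib replicate 4, 9 members passed (Mcm4, Mcm6, Cdc45, Gins1, Pcna, Fen1, Lig1, Rrm2 and E2f1). The share of all probes that passed in that fit is not given, so this count cannot be called particular to the members. Further probes went the other way for Lig1 (−0.96) and for 1 of 2 of Mcm6 (−0.91), and those of Rrm2 differed by 0.60 and 0.26. The mean over probes was 0.75 for Mcm6, 0.28 for Lig1 and 1.24 for Rrm2, none of which passed (0.57, 0.887 and 0.243). Further probes of Exo1 (2.07, 0.0196) and Ccnd1 (1.51, 0.0463) were higher with erlotinib. Of the 23 keratinocyte markers 18 had positive differences and Trp63, Lama3 and Itga6 were higher with erlotinib, and their part was not tested. With array weights 19 members passed, against 14.3% of all probes. In WT mock and WT ras no member passed between these compounds (0.00357% and 0.287% of all probes), where the largest differences were 0.73 for E2f1 (−0.22 to 1.68) and 1.43 for Rrm2 (0.15 to 2.71).

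**Figure D4:**
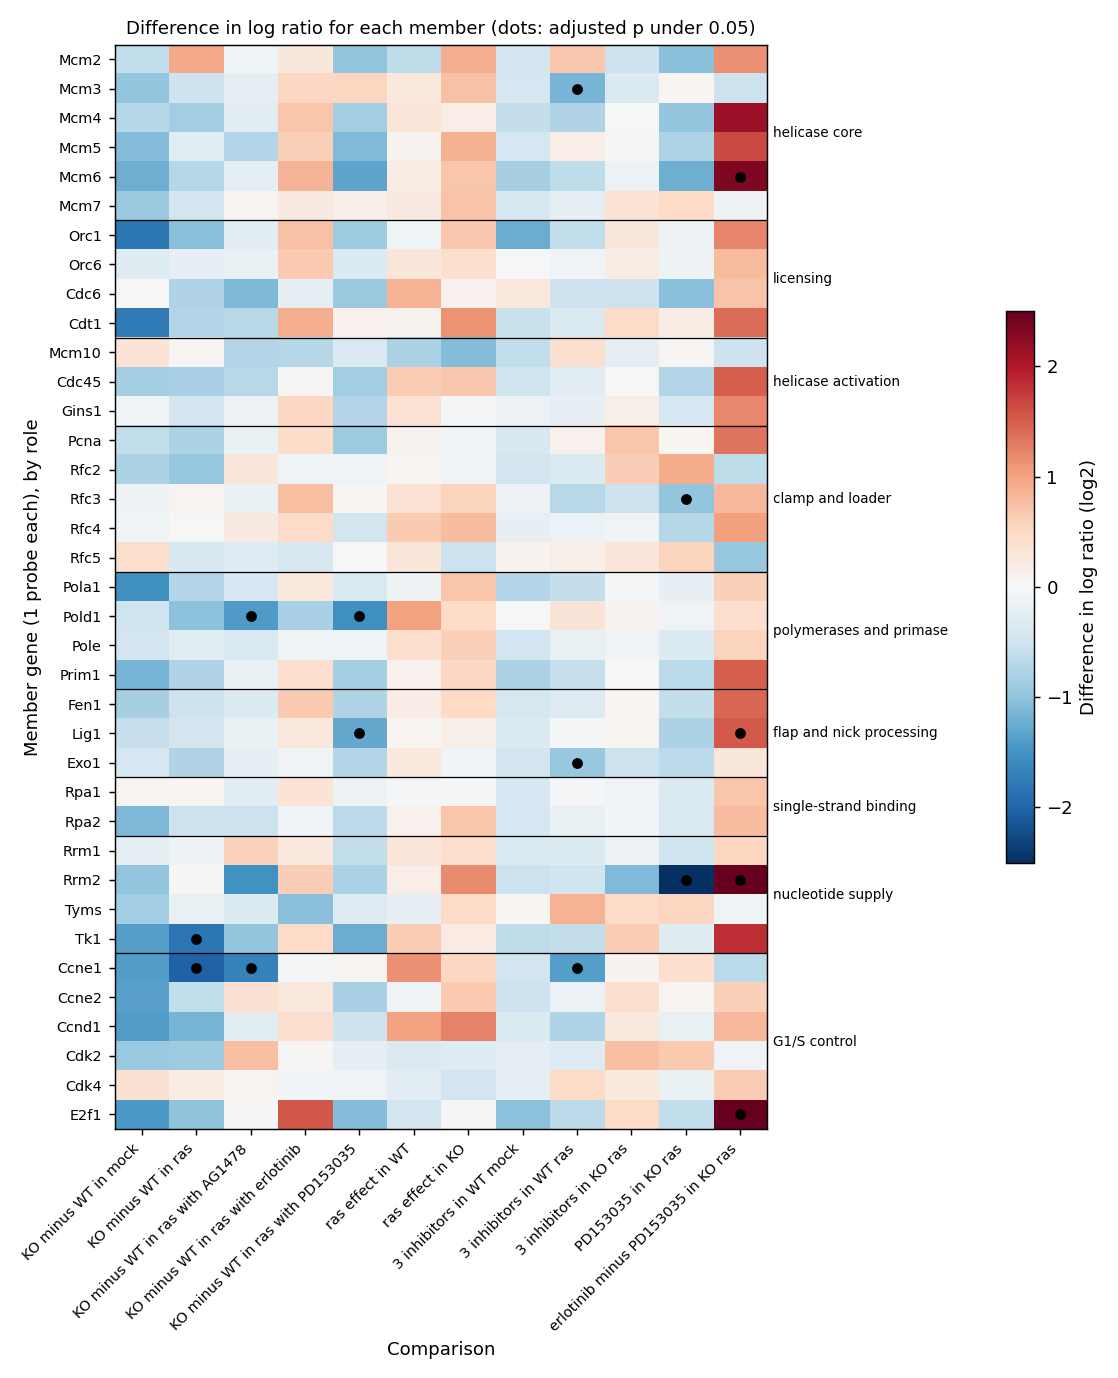
Difference in log2 ratio for each of the 37 members, ordered by role, in 12 comparisons; blue is lower and red higher in the group named first, and dots mark an adjusted p under 0.05. KO minus WT in mock is blue for 32 of 37 members without a dot, and erlotinib minus PD153035 in KO ras holds 4 dots.

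Over all 31 comparisons 11 members passed at least once, with 25 calls between them, and 26 never did, where 18.9% of all 28049 probes passed at least once. The members never called include Mcm2, Mcm4, Mcm5 and Mcm7 on their main probes, Orc1, Orc6 and Cdt1 of licensing, Cdc45, Gins1 and Mcm10, Pcna with Rfc2, Rfc4 and Rfc5, Pola1, Pole and Prim1, Fen1, both RPA subunits, Rrm1 and Tyms, and Ccne2, Ccnd1, Cdk2 and Cdk4. A half-width of 0.71 to 0.90 was typical for 1 member in 1 genotype comparison, so many differences under 1 unit could not be told from 0. With erlotinib in WT ras Tyms, which makes thymidylate, lay above every untreated sample, at −1.33 to −0.45 against −3.17 to −1.47, a difference of 1.31 (SE 0.54, limma adjusted p = 0.171), though its 3 further probes differed by −0.77, −0.50 and −0.58; it was named after its values were seen.

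Related genes outside the 38 were read from separate lists of symbols. Of 31 mitotic (G2/M) genes measured, 29 were lower in KO than in WT ras with PD153035, with a median of −0.96, and 8 passed: Ccna2 (−2.26), Ccnb2 (−2.34), Cdk1 (−2.11), Bub1b (−1.97), Top2a (−2.06), Kif11 (−1.34), Kif23 (−2.62) and Prc1 (−1.42). There 51.2% of all probes were below 0 and 1.38% passed. Over the 3 inhibitors 5 passed, all lower in KO (Ccnb2, Bub1b, Kif23, Cenpa and Nek2), against 6.48% of all probes. In KO ras 8 were higher with erlotinib than with PD153035, against 2.09% of all probes. Between KO ras with PD153035 and untreated KO ras 1 was higher and 3 were lower, against 4.82% of all probes. In WT mock cells all 31 lay lower on average with the inhibitors (median −0.37), where 48% of all probes did, and none passed (0% of all probes). Of 46 other replication and G1/S genes, 33 were lower in KO ras than in WT ras, where the histone chaperone Asf1b was lower (−1.07, limma adjusted p = 0.0442) and Rb1, which restrains E2F, higher (1.21, 0.0117). Between these groups 49.3% of all probes were below 0 and 1.93% passed. Uhrf1 was lower in KO with PD153035 (−1.52, 0.0282), while Ccnd2, a D-type cyclin, was higher in KO over the 3 inhibitors (1.30, 0.0473). The shares of all probes that passed in these comparisons were 1.38% and 6.48%. In mock cells 32 of the 46 were lower in KO, where 46.7% of all probes were, with a median of −0.28, and none passed (1.11% of all probes). Of 6 CDK inhibitor genes, none passed between genotypes in mock or in ras cells (1.11% and 1.93% of all probes). Cdkn2c was lower in KO over the 3 inhibitors (−1.06, adjusted p = 0.00378), against 6.48% of all probes called.

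The members followed each other to different degrees across the 62 samples. The median Pearson r between 2 members was 0.27 over 666 pairs, and 0.20 once group means were removed, so part of the likeness lay within groups, where members share each sample's array and run. Mcm4, Mcm5 and Fen1 (r = 0.82 each with the median of the other members) and Lig1 (0.80) followed the others most, and Tyms (−0.18), Rfc5 (−0.12), Mcm10 (−0.09), Cdk2 (0.01) and Mcm3 (0.03) least. Pold1 lay in between at 0.56. Each r is that of a member's main probe. The main probe of Tyms averaged −2.01 in WT mock, where its further probes averaged 1.02, 2.26 and 0.65, so its r describes that probe only. In all, 20 of 37 members had an r over 0.5, and 13 with group means removed, while 2.48% of all probes had one with the members' median. These are descriptions over samples that share the reference RNA.

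**Figure D5:**
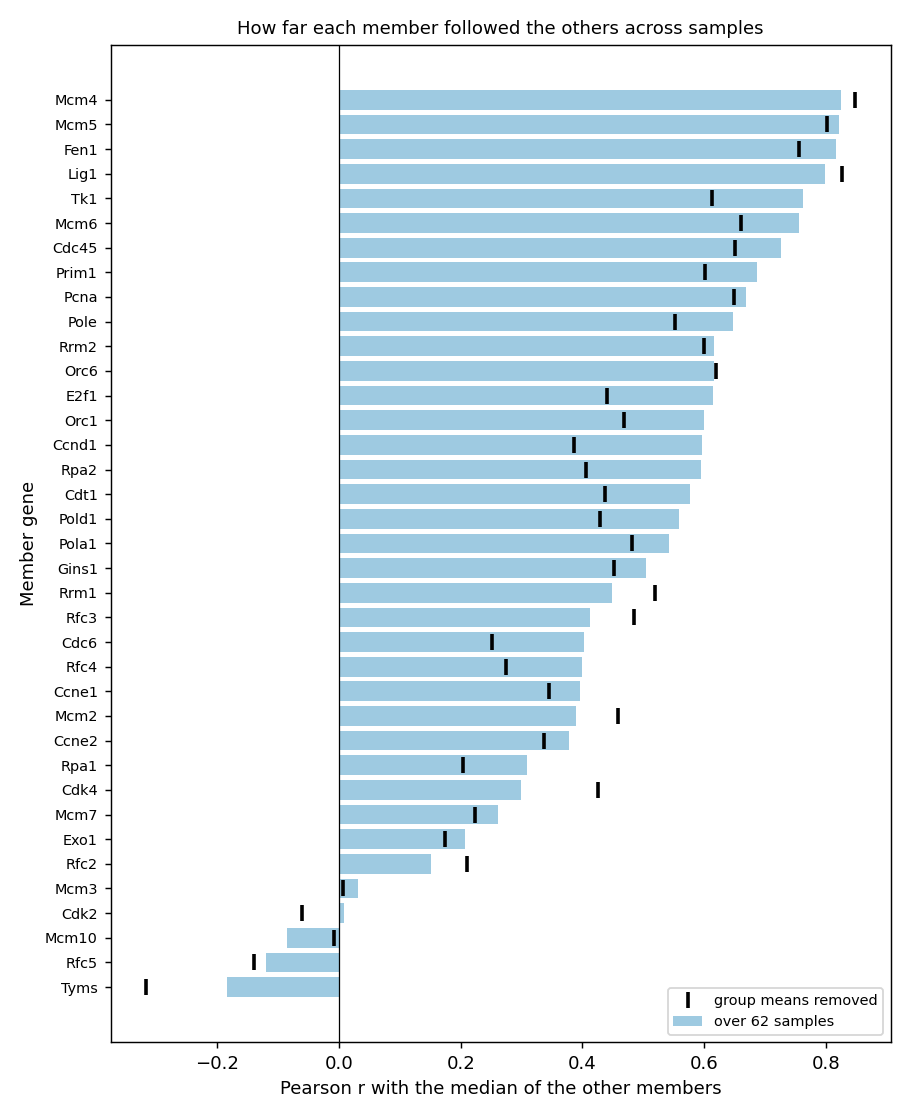
Pearson r of each member with the median of the other members over 62 samples (bars) and with group means removed (ticks). Mcm4, Mcm5 and Fen1 reach 0.82, and Tyms, Rfc5 and Mcm10 lie below 0, each read by its main probe.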

How the data were processed

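Two-colour arrays of mouse oligonucleotides were used, 63 arrays of 62 samples. The deposited values are log ratios centred by the authors (array medians −0.07 to 0.07), with 51 arrays labelled forward and 12 reversed. As deposited they are taken as log2, an assumption from their spread (SD per array 0.753 to 1.75), and the base, background correction and normalization the authors used are not given in the sources used here. Arrays held 24860 to 28047 values, and the number of samples limits the precision.

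An array was given the sign that made it correlate positively with the median forward array, so that ratios read sample over reference. The 2 WT mock arrays labelled repeat 1 (r = 0.834) were averaged. All 13 groups were fitted with dye order in limma 3.58.1 (R 4.3.3, statmod 1.5.0), with Benjamini-Hochberg adjustment over probes with values on at least 60% of each compared group's arrays, jointly over the 9 inhibitor pairs, and a threshold of 0.05. The fit was tested on simulated data. Each gene was read by its probe with most values, and values per sample were given for called members and for Pcna and Ccnd1; Orc1 was added after its values were seen. E2f1 had no value in 1 sample of WT mock with AG1478. The members and lists were chosen with earlier results of these data known. Probes with 1 symbol numbered 20925, with several 159 and with none 6965. Alternatives changed centring, scaling, filter, dye term, sign, blocks, weights and samples. Figures were drawn with Python 3.11.15 and matplotlib 3.10.9.

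Experiment numbers more than 100 apart start a new run. Replicate numbers were not taken to pair the samples: in none of 25 comparisons, 0, did every same-number pair correlate above 0.1. That rule fails on 1 weak pair, so it cannot show that pairing was absent. For AG1478 against PD153035 in WT mock, for example, the pairs ran from 0.095 to 0.678.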

Additional observations from a re-analysis of the deposited data

Results flagged for a closer look

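Of 168 sets of values (the 11 called members, Pcna, Ccnd1 and the median over all members, each in every group of 4 to 6 samples), 12 held a sample that stood apart from the rest by Dixon's test at 95%. Chance gives about 1 in 20 such sets. No explanation was tested. Ccne1 in WT ras replicate 1 read 1.19, where the other samples read 2.13 to 2.49. Ccne1 in WT mock erlotinib replicate 4 read 0.89, where the other samples read 0.48 to 0.60. Rfc3 in WT mock erlotinib replicate 3 read 1.51, where the other samples read 0.40 to 0.72. Mcm6 in WT mock erlotinib replicate 1 read −0.19, where the other samples read 0.97 to 1.32. Rrm2 in WT mock replicate 5 read 0.47, where the other samples read 2.53 to 2.68. Pcna in WT mock replicate 2 read 0.34, where the other samples read 1.15 to 1.22. Rrm2 in KO ras erlotinib replicate 4 read 1.43, where the other samples read 2.79 to 2.98. Ccne1 in WT ras erlotinib replicate 2 read 1.21, where the other samples read −0.89 to −0.34. Rrm2 in WT ras AG1478 replicate 3 read −0.55, where the other samples read 3.00 to 4.05. Mcm3 in WT ras PD153035 replicate 4 read 1.18, where the other samples read 0.01 to 0.29. E2f1 in KO ras AG1478 replicate 3 read 1.71, where the other samples read −0.17 to 0.28. Ccne1 in KO ras AG1478 replicate 5 read −1.01, where the other samples read 0.02 to 0.61. The KO ras AG1478 replicate 3 array is 1 of the 2 whose dye order is disputed. The WT ras replicate 1 value of Ccne1 and the KO ras erlotinib replicate 4 value of Rrm2 enter comparisons described above.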

How the results depend on the processing

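Calls of single members were kept in 280 of 377 other settings and in 217 of 318 fits with 1 sample left out, and the sign of no call turned. Pold1 kept its calls with PD153035 (adjusted p 2.36e-05 to 0.00349) and over the 3 inhibitors (4.69e-08 to 2.72e-05) in every setting run, and with AG1478 in all but the fixed run block. Averaging probes by gene could not change its differences, as it had 1 probe. The median over members moved by more than its spread for KO−WT in mock (−0.59 without KO mock replicate 3) and for PD153035 in KO ras (−0.20 with probes averaged by gene). The shares of all probes that passed are not given beside the counts below, nor for the fits with 1 sample left out. These counts therefore cannot be called particular to the members. With array weights, the shares given above were larger than those of the main fit. Counts of called members that moved by more than 1.5 times were as follows, and smaller changes are not listed. With array weights the count was 1 for AG1478−PD153035 in WT mock, 2 for KO−WT in ras erlotinib, PD153035 in WT ras and AG1478 in KO ras, 3 for 3 inhibitors KO−WT in ras, AG1478−erlotinib in WT ras and AG1478−PD153035 in KO ras, 4 for KO−WT in ras, KO−WT in ras AG1478 and AG1478−PD153035 in WT ras, 6 for AG1478−erlotinib in KO ras, 7 for 3 inhibitors in KO ras, 8 for KO−WT in ras PD153035, erlotinib in KO ras and PD153035 in KO ras, 10 for KO−WT in mock, 19 for erlotinib−PD153035 in KO ras. With arrays scaled to 1 median absolute deviation the count was 0 for PD153035 in WT ras and AG1478−erlotinib in KO ras, 1 for KO−WT in mock and erlotinib−PD153035 in KO ras. Without both disputed arrays the count was 0 for PD153035 in WT ras, 1 for KO−WT in ras AG1478 and KO−WT in ras over 3 inhibitors. With forward arrays only the count was 0 for AG1478 in WT ras, PD153035 in WT ras and AG1478−erlotinib in WT ras, 1 for KO−WT in ras AG1478, KO−WT in ras PD153035, 3 inhibitors in WT ras, 3 inhibitors in KO ras, AG1478 in KO ras and KO−WT in ras over 3 inhibitors, 2 for erlotinib in WT ras and erlotinib in KO ras, 4 for KO−WT in ras. With no dye term the count was 0 for AG1478 in WT ras and PD153035 in WT ras, 1 for 3 inhibitors in WT ras, 2 for erlotinib in WT ras. With only the groups compared in the fit the count was 0 for KO−WT in ras, 3 inhibitors in WT ras, AG1478 in WT ras, erlotinib in WT ras, PD153035 in WT ras and AG1478−erlotinib in WT ras, 1 for KO−WT in ras AG1478 and PD153035 in KO ras, 7 for KO−WT in ras PD153035. With probes averaged by gene the count was 0 for AG1478 in WT ras and AG1478−erlotinib in WT ras, 1 for KO−WT in ras AG1478, KO−WT in ras PD153035 and PD153035 in KO ras, 2 for PD153035 in WT ras and erlotinib−PD153035 in KO ras. With probes valued on every array the count was 0 for AG1478−erlotinib in KO ras. With quantile normalization the count was 0 for PD153035 in WT ras and AG1478−erlotinib in KO ras, 1 for KO−WT in mock, AG1478 in KO ras and erlotinib−PD153035 in KO ras, 2 for erlotinib in WT ras. With the replicate block the count was 0 for AG1478−erlotinib in WT ras. With run as fixed block, only the groups compared the count was 0 for KO−WT in ras AG1478, 1 for KO−WT in ras over 3 inhibitors. With run as random block the count was 0 for KO−WT in ras, 3 inhibitors in WT ras, AG1478 in WT ras, erlotinib in WT ras, PD153035 in WT ras, PD153035 in KO ras, AG1478−erlotinib in WT ras, AG1478−erlotinib in KO ras and erlotinib−PD153035 in KO ras, 1 for KO−WT in ras AG1478 and KO−WT in ras over 3 inhibitors. With sign and dye order as labelled the count was 0 for AG1478 in WT ras and PD153035 in WT ras, 1 for KO−WT in ras, KO−WT in ras PD153035, 3 inhibitors in WT ras, AG1478 in KO ras and KO−WT in ras over 3 inhibitors, 2 for erlotinib in WT ras and AG1478−erlotinib in KO ras, 7 for erlotinib−PD153035 in KO ras. Centring arrays on their median, applying no filter and keeping the arrays of repeat 1 apart moved no count by that much. Without both disputed arrays single calls were also lost for Ccne1 over 3 inhibitors (0.0552) and Exo1 with erlotinib (0.0512) in WT ras. With 1 sample left out the counts ran from 0 to 1 for KO−WT in mock, 3 inhibitors in KO ras, 3 inhibitors KO−WT in ras, AG1478 in WT ras, AG1478 in KO ras, AG1478−PD153035 in WT ras and AG1478−erlotinib in WT ras, 0 to 2 for PD153035 in WT ras and AG1478−erlotinib in KO ras, 0 to 4 for KO−WT in ras and erlotinib in KO ras, 1 to 2 for KO−WT in ras PD153035 and KO−WT in ras over 3 inhibitors, 1 to 3 for PD153035 in KO ras, 1 to 4 for KO−WT in ras AG1478 and 3 inhibitors in WT ras, 1 to 9 for erlotinib−PD153035 in KO ras, 2 to 4 for erlotinib in WT ras, and stayed at 0 for the other comparisons. The replicate numbers were not taken to pair the samples. As a block they cost the calls of Ccne1 over 3 inhibitors in WT ras (adjusted p = 0.058), Exo1 with erlotinib in WT ras (0.0501) and Ccne1 for AG1478−erlotinib in WT ras (0.0523). The fixed run block could be fitted for 13 comparisons and could not be fitted for the others. The causes of these moves were not tested.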
